A study of Homo sapiens with 6 samples.

Results

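A retained intron is an intron left in a transcript that is otherwise spliced. The spliceosome removes most introns while the gene is still being transcribed, and an intron that stays can hold its RNA in the nucleus, open the RNA to nonsense-mediated decay through an early stop codon, or alter the end of the protein. Genes for splicing regulators and genes with short, GC-rich introns are well known for it, and the histone marks along a gene are among the features tied to how its exons and introns are chosen.

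The retained introns described here are those longer than 500 bases, measured from the end of the upstream exon to the start of the downstream exon. They were 433 of the 869 retained intron events in the deposited table, in 301 genes. Events of a gene can overlap, and the 433 fell into 349 introns that do not overlap one another. RNA came from LNCaP, a human prostate cancer cell line that depends on androgens, as 3 libraries labelled as stably carrying Flag-tagged wild-type KDM4B (replicates 1, 2 and 4) and 3 libraries with the plenti6 control plasmid, called vector libraries here (replicates 1, 2 and 3). KDM4B is a demethylase of histone H3 lysine 9. All 6 had been kept for 3 days in RPMI with 10% CFBS, a serum the labels do not spell out, before harvest. Nothing in the labels says whether a group is 1 clone or a pool, or that its replicates were grown apart, so p-values here speak to the spread between these 6 libraries, which may be technical.

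The KDM4B transcript did not set the groups apart by much, with 26.4 ± 0.71 FPKM (SD over the 3 libraries labelled KDM4B) beside 25.1 ± 0.29 FPKM (SD, 3 vector libraries). Luminal prostate markers, all 10 of which were found, summed to 1708 to 1781 FPKM in the first group and 4421 to 4615 FPKM in the second, while the basal, immune and endothelial markers found each summed to at most 0.41 FPKM. The 5 fibroblast and mesenchymal markers summed to 3.89 to 4.01 FPKM against 5.92 to 6.79 FPKM, and the 3 neuroendocrine markers to 13.5 to 15.4 FPKM against 12.5 to 14.7 FPKM. Ribosomal RNA genes took 8.14% to 10.5% of summed FPKM in the libraries labelled KDM4B and 0.144% to 0.473% in the vector libraries, and the titles of the first group carry a suffix that the second lacks, so a batch cannot be told apart from the group. In bulk RNA fewer cells of a type and less RNA per cell cannot be told apart either. What these differences add to the results below was not tested.

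The long introns ran from 505 to 12344 bases, with a median of 1251; 273 were over 1000 bases and 30 over 5000. For 276 of them the spliced transcript was a RefSeq transcript, and for 157 it was named in the table as a new one. The length was a multiple of 3, which keeps the reading frame where no stop codon is met, for 138 (31.9%) of the long introns and 137 (31.4%) of the 436 introns up to 500 bases. Exons of other transcripts can lie inside an intron: 64 long introns (14.8%) held an exon that the skipped exon or mutually exclusive exon tables list for the same gene, against 6 (1.38%) of the shorter ones. Reads on such an exon enter the count of the intron.

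Each event had 1 read count per library, which joins reads of the retained and the spliced form. The median long intron had 322.5 reads as its mean over the 6 libraries, against 86.2 for the shorter introns, but 217 reads per 1000 bases of intron against 457. Across the 433 long introns log10 mean reads and log10 length were correlated at Pearson's r = 0.524, a description over events that share libraries. The long introns summed to 242552 to 254817 reads in the libraries labelled KDM4B and 311834 to 320243 in the vector libraries, against sums of skipped exon (SE) reads of 14212396 to 14787321 and 16451082 to 17021204. Per 1000 SE reads this was 17.2 ± 0.23 (SD, n = 3) and 18.9 ± 0.48, and the groups did not overlap. For the introns up to 500 bases it was 5.73 ± 0.018 and 6.82 ± 0.16.

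To ask which introns changed against their own gene, the reads of each event were set against the summed SE reads of the same gene, given below as event reads per 100 SE reads. An intron that rises on this scale has more event reads for the SE reads of its gene, not a known rise of the retained form, since the event count joins both forms and SE events of a gene can share reads. The median over the long introns was 37.5 event reads per 100 SE reads (quartiles 15.4 and 107), and 97 introns had more event reads than SE reads. Of the 433, 43 (36 genes) had no SE events in their gene, 7 others fell under 10 event reads in a library and 4 under 10 SE reads, which left 379 introns of 259 genes for the test.

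Against the SE reads of their gene, 42 long introns (34 genes) rose and 34 (24 genes) fell in the libraries labelled KDM4B, 76 in all or 20.1%. These counts take overlapping events apart, and such events share reads. The 379 tested events made up 304 introns that do not overlap one another, of which 35 held a rise and 26 a fall. Over all 750 retained introns tested, 16% passed the same threshold, 9.73% upward and 6.27% downward (edgeR quasi-likelihood test at an adjusted p below 0.05 by Benjamini-Hochberg). Of the 371 introns up to 500 bases 31 rose and 13 fell (11.9%); the difference between the length groups was not tested. Changes of the long introns ran from -1.22 to 0.95 on the log2 scale with a median of -0.02, and 23 called introns changed by at least 1.5-fold. For 65 introns all 3 libraries labelled KDM4B lay above all 3 vector libraries and for 63 all lay below, together 33.8% against 29.3% of all retained introns tested.

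Leaving out 1 library gave between 52 and 78 called introns. Without vector replicate 1 or without vector replicate 3, 22 fell in place of 34. DESeq2 called 44, 26 upward and 18 downward. With the most-read SE event of the gene in place of the sum, 36 were called, 22 upward and 14 downward, and with FPKM as the level 107, 58 upward and 49 downward. With only SE events outside the intron and its flanking exons, 42 rose and 30 fell of 353 tested.

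**Figure D1:**
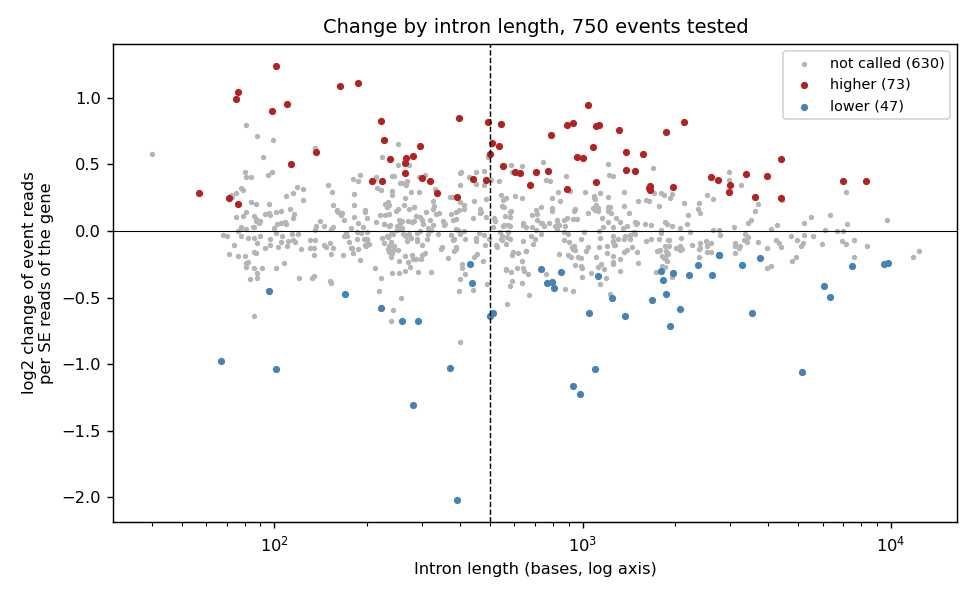
Change of event reads per SE reads of the gene (log2, libraries labelled KDM4B against vector) by intron length in bases on a log axis, 1 point per retained intron tested. Right of the dashed line at 500 bases lie the long introns, where 42 red points rose and 34 blue points fell; the widest changes, up to 1.24 and down to -2.02, lie left of it.

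By length, 14 introns rose and 8 fell of the 136 up to 1000 bases, 16 rose and 11 fell of the 136 from there to 2000 bases, and 12 rose and 15 fell of the 107 over 2000 bases. Median event reads were 304 in the middle class and 787 in the longest, so the longest introns were also the better counted. Across the 379 introns the log2 change and log10 length were correlated at r = -0.0922 (Spearman's rho -0.102). Of the 64 introns that hold an exon 15 rose and 6 fell (32.8%), and of the 315 with no exon inside 27 rose and 28 fell (17.5%); their median event reads were 620 and 318, and the difference was not tested. In genes with a mean FPKM under 10, 13 introns rose and 4 fell of 141, and in genes at 10 FPKM or more 29 rose and 30 fell of 238.

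Overlapping events of a gene counted once, as the one with the most reads, and at least 20 reads in every library and groups apart were required. The introns with the largest rises by this rule were in RABL2A, DERL3, GTPBP2, TCF25, ELP5, TOR2A, TMEM39B and PDCD2. In GTPBP2, a GTPase that acts on stalled ribosomes (chromosome 6, 43590542 to 43591473, 932 bases), there were 63.5, 66.5 and 65.6 event reads per 100 SE reads in the libraries labelled KDM4B and 35.2, 38.0 and 38.5 in the vector libraries. The 2 groups lay far apart, and the log2 change was 0.81 (SE 0.11, adjusted p = 1.74e-05). Both the intron and the gene had lost reads: event reads were 157 to 189 against 782 to 830, and SE reads 236 to 296 against 2060 to 2358. The rise is thus a smaller loss on the intron than on the SE events, beside a gene that measured 12.3 ± 0.98 FPKM against 91.6 ± 7.5. DERL3, a part of the machinery that removes misfolded proteins from the endoplasmic reticulum (chromosome 22, 24177120 to 24179250, 2131 bases), had the same form, with 146 to 162 event reads against 371 to 475 and 15 to 22 SE reads against 83 to 101. Its log2 change of 0.82 (SE 0.26, adjusted p = 0.0372) rests on those few SE reads and missed the threshold with DESeq2 (adjusted p = 0.087) and without KDM4B replicate 1, 2 or 4 or vector replicate 2 or 3 (adjusted p = 0.0521 to 0.115).

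In ELP5, a subunit of the Elongator complex that modifies tRNA (chromosome 17, 7162003 to 7162889, 887 bases, 1 exon inside), there were 663, 612 and 627 event reads against 611, 634 and 654, from libraries with fewer SE reads in all. Scaled to library totals this was a rise of 0.22 in event reads (SE 0.075, adjusted p = 0.028), which missed the threshold with DESeq2 (adjusted p = 0.0512) and without KDM4B replicate 1 or 4 or vector replicate 1 or 2 (adjusted p = 0.0559 to 0.121). SE reads of the gene were 540, 470 and 490 against 925, 892 and 786, so event reads per 100 SE reads were 127 ± 3.81 (SD, n = 3) against 73.5 ± 8.82. The log2 change was 0.80 (SE 0.11, adjusted p = 1.74e-05). TCF25, a member of the ribosome quality control complex (chromosome 16, 89977776 to 89978902, 1127 bases), had 126, 138 and 161 event reads against 141, 129 and 139 and SE reads of 2015 to 2113 against 3343 to 3531. Its log2 change was 0.80 (SE 0.13, adjusted p = 0.000117), and the gene measured 40.6 ± 0.94 FPKM against 67.8 ± 1.4. The spliced transcript of the TCF25 intron was named as a new one. Whether the intron lies within TCF25 could not be checked, since the build of the positions is not settled. TMEM39B (chromosome 1, 32566164 to 32568031, 1868 bases) followed at 0.74 (SE 0.18, adjusted p = 0.00472), with 239 to 271 event reads against 284 to 321. TMEM39B passed no longer with its most-read SE event as the level (adjusted p = 0.0819).

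PDCD2, a chaperone of a ribosomal protein (chromosome 6, 170891354 to 170892144, 791 bases), also gained event reads once scaled to library totals, by 0.63 (SE 0.092, adjusted p = 4.68e-05). It had 664, 654 and 812 event reads against 519, 549 and 539, and SE reads of 285 to 297 against 333 to 397. Event reads per 100 SE reads were 233, 229 and 273 against 131, 155 and 162, a log2 change of 0.72 (SE 0.13, adjusted p = 0.000501), while the gene stood at 29.5 ± 0.60 FPKM against 31.3 ± 1.04. TOR2A, a torsin ATPase (chromosome 9, 130494558 to 130495663, 1106 bases, 1 exon inside), rose by 0.79 against its gene (SE 0.17, adjusted p = 0.00272), with 113 to 145 event reads against 99 to 120 and SE reads of 211 to 256 against 335 to 390. RABL2A, a RAB-like small GTPase with a near-identical copy elsewhere in the genome (chromosome 2, 114399723 to 114400766, 1044 bases), had the largest value at 0.95 (SE 0.31, adjusted p = 0.0378). It had 14 to 47 SE reads per library, its value was 0.18 with FPKM as the level (adjusted p = 0.36), and it missed the threshold without KDM4B replicate 2 or 4 or vector replicate 1 (adjusted p = 0.0678 to 0.214), so its place is uncertain.

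By the same rule the largest falls included those in ATAD3B, TNRC6C, LTN1, TUBGCP6, PRPF4B, MAPK8IP3 and BRWD1. ATAD3B, a mitochondrial ATPase with close copies beside it on the chromosome (chromosome 1, 1424655 to 1425636, 982 bases), had 225, 249 and 221 event reads in the libraries labelled KDM4B and 348, 441 and 382 in the vector libraries. Its SE reads went the other way, at 166 to 198 against 123 to 134, and event reads per 100 SE reads were 129 ± 13.3 (SD, n = 3) against 299 ± 26.1. Here intron and gene moved apart: the log2 change was -1.22 (SE 0.17, adjusted p = 1.74e-05), the event reads alone fell by 0.53 (adjusted p = 0.000985), and the gene rose from 18.7 ± 0.29 to 24.0 ± 1.57 FPKM. Reads of near-identical copies may be split between them, which makes ATAD3B uncertain.

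TNRC6C, a GW182 protein of microRNA silencing (chromosome 17, 76099635 to 76100565, 931 bases), had 34, 28 and 24 event reads against 60, 68 and 69 with nearly level SE reads of 552 to 580 against 548 to 592. The log2 change was -1.16 (SE 0.21, adjusted p = 0.000501), and -0.77 with the most-read SE event as the level (adjusted p = 0.112). TUBGCP6, of the gamma-tubulin ring complex (chromosome 22, 50695623 to 50696671, 1049 bases), had 232, 254 and 211 event reads against 440, 488 and 466 and fell by 0.62 on the log2 scale (SE 0.095, adjusted p = 7.68e-05). In both introns the event reads themselves fell, by 0.97 and 0.78 on the log2 scale, beside changes of -0.02 and -0.15 in the FPKM of the genes named for them. The spliced transcripts of both introns were named as new ones. Whether the introns lie within TNRC6C and TUBGCP6 could not be checked, since the build of the positions is not settled.

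LTN1, the ubiquitin ligase of ribosome quality control (chromosome 21, 30333029 to 30338186, 5158 bases, 2 exons inside), showed how much the level matters. Event reads were 530, 586 and 485 against 693, 746 and 698, and summed SE reads 1505 to 1730 against 983 to 1064, which gave -1.06 (SE 0.096, adjusted p = 1.27e-07). The most-read SE event of LTN1, with 414 to 496 reads against 589 to 646, was lower as the event reads were, and the change was -0.01 (adjusted p = 0.981) with that event as the level. Another SE event of the gene had 388 to 478 reads against 111 to 128. The 3 least-read SE events of LTN1 overlapped between the groups, one of them with a mean of 36 reads against 45.3. The most-read one lies inside the intron and shares reads with its event, so the change of -0.01 sets the event in part against its own reads. Better-read SE events outside the intron were higher in the libraries labelled KDM4B. Besides the one with 388 to 478 reads, these had 278 to 355 against 121 to 137 and 282 to 379 against 96 to 106. The size of the fall thus depends on which SE events serve as the level.

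MAPK8IP3, a scaffold of JNK signalling (chromosome 16, 1793478 to 1797029, 3552 bases), and BRWD1, a bromodomain protein (chromosome 21, 40668290 to 40670357, 2068 bases), fell by 0.61 and 0.58 on the log2 scale (adjusted p = 0.00026 and 0.000501). Their event reads overlapped between the groups once scaled to library totals, and their SE reads were higher in the libraries labelled KDM4B, at 449 to 526 against 379 to 392 and 1330 to 1407 against 1054 to 1141. PRPF4B, a kinase that acts on the spliceosome (chromosome 6, 4061935 to 4062446, 512 bases), had 62, 42 and 78 event reads against 95, 86 and 107. Its change of -0.62 (SE 0.18, adjusted p = 0.0183) missed the threshold without KDM4B replicate 2 (adjusted p = 0.138) or vector replicate 3 (adjusted p = 0.0829). Its spliced transcript was named as a new one, and whether the intron lies within PRPF4B could not be checked. Apart from the 8 rises and 8 falls of this rule, 34 events rose by 0.25 to 0.81 with a median of 0.43 and 26 fell by 0.18 to 1.04 with a median of 0.33. The ends of these ranges belong to events that the rule left out: the fall of 1.04 is a second, 1098-base event within the LTN1 intron, and the rise of 0.81 is an event that was under 20 reads in a library.

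**Figure D2:**
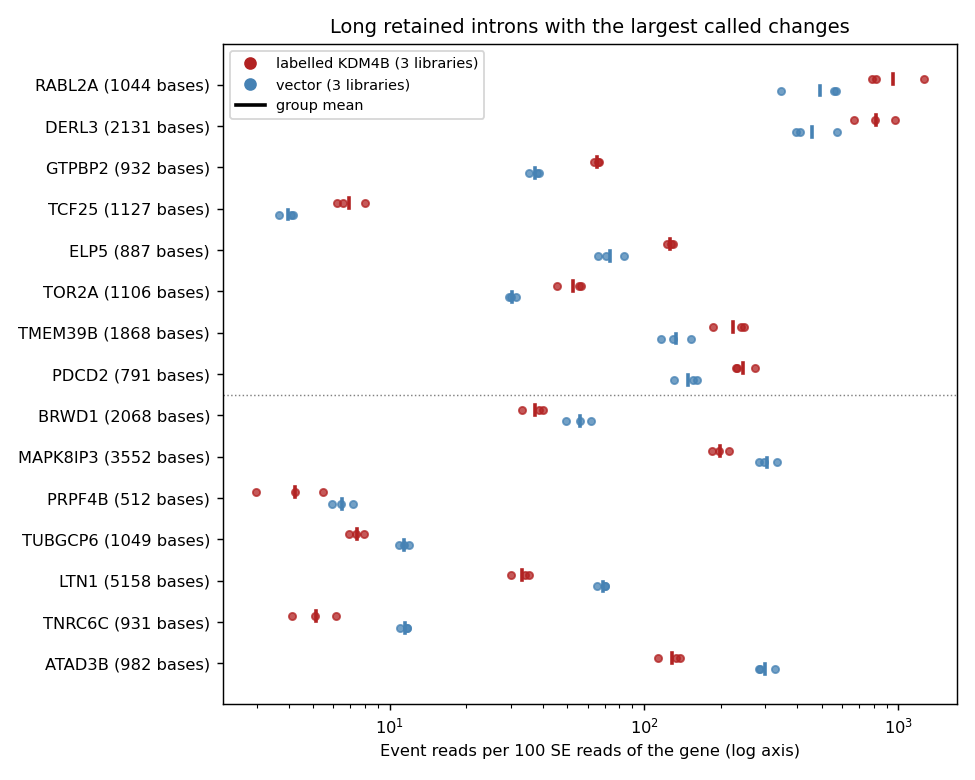
Event reads per 100 SE reads of the gene, on a log axis, for the 8 largest rises (above the dotted line) and 7 of the 8 largest falls among the long introns, taking the most-read of overlapping events with at least 20 reads per library and groups apart; dots are libraries (3 labelled KDM4B in red, 3 vector in blue) and ticks are group means. GTPBP2 is tight in both groups, at 63.5 to 66.5 and 35.2 to 38.5, while RABL2A spreads from 789 to 1264 in the libraries labelled KDM4B.

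Event reads and SE reads of the gene went together. Across the 379 introns the log2 change of event reads and that of summed SE reads were correlated at r = 0.845 (rho 0.668), a description over introns that share libraries and at times a gene. Taken alone, the reads of 67 long introns rose and those of 124 fell of 423 tested, 191 or 45.2%, against 38% of all 819 retained introns tested, 14.4% upward and 23.6% downward (edgeR quasi-likelihood test with SE library totals and TMM factors). Groups did not overlap for 88 upward and 145 downward, 55.1% against 48.7% of all. The median change of event reads was -0.07.

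Among the 42 introns that rose against their gene, event reads rose in 20, fell in 7 and passed no threshold in 15, and the SE reads were lower in the libraries labelled KDM4B in 35. Among the 34 that fell, event reads fell in 20, rose in 1 and passed no threshold in 13, and the SE reads were higher in 25. The SE reads are part of the ratio, so they move against it by construction (r = -0.342 over the 379). The genes of the 42 rising introns measured lower FPKM for 33 introns and higher for 3, and those of the 34 falling introns lower for 13 and higher for 7 (limma on FPKM as deposited, where 60.3% of all genes were lower and 13.4% higher). After median-of-ratios scaling, which leaves 35.5% of all genes lower and 32.5% higher, the genes of the 42 were lower for 25 and higher for 8, and those of the 34 lower for 8 and higher for 21, so for the falling introns the balance turns with the scaling.

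**Figure D3:**
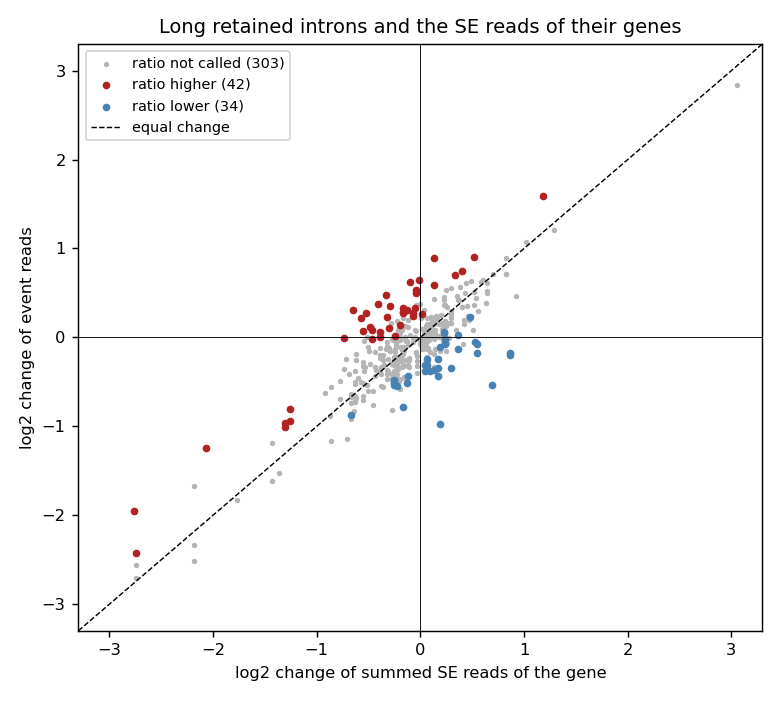
Log2 change of event reads (vertical) against log2 change of the summed SE reads of the gene (horizontal) for the 379 long introns tested. Points on the dashed line changed as their gene did; the 42 red points, which rose against their gene, lie above it and mostly left of 0, and the 34 blue points, which fell, lie below it.

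The host genes as a group measured lower in the libraries labelled KDM4B. Of 294 host genes tested, 37 had higher and 205 lower FPKM, 82.3% in all. Of the 12148 genes tested 73.7% passed, 13.4% upward and 60.3% downward (limma on log2(FPKM + 1), a scale that understates changes of low genes). Their median change was -0.30, against -0.22 over all genes. After median-of-ratios scaling, which takes the median of all genes to -0.01, 81 host genes were higher and 126 lower (70.4%, against 67.9% of all genes), with a median of -0.09.

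The largest changes of event reads, again with the most-read of overlapping events, are given next; these introns were chosen after their values were seen. In MAF, a basic leucine zipper transcription factor (chromosome 16, 79628451 to 79632681, 4231 bases), event reads were 123, 114 and 126 against 1183, 1328 and 1341, a log2 change of -3.19 (SE 0.094, adjusted p = 7.79e-14), and the gene measured 1.30 ± 0.20 FPKM against 13.4 ± 1.2. MAF has no SE events and no ratio. KLK2, BEST1, a chloride channel, GTPBP2, and PTPRM, a receptor tyrosine phosphatase, followed at -2.42, -2.34, -1.95 and -1.83. Against the SE reads of their genes BEST1 and PTPRM had changes of -0.17 (adjusted p = 0.685) and -0.06 (adjusted p = 0.865).

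On the other side DAPK1, a death-associated kinase (chromosome 9, 90296542 to 90301465, 4924 bases), had 239, 317 and 269 event reads against 40, 62 and 32. That was a log2 change of 2.84 (SE 0.19, adjusted p = 4.1e-09), but SE reads were also higher, at 121 to 161 against 19 to 21, and the ratio had a change of -0.20 (SE 0.28, adjusted p = 0.725). DSG1, a desmosomal cadherin (chromosome 18, 28919989 to 28923412, 3424 bases), had 434, 447 and 399 event reads against 89, 65 and 111, a change of 2.49, in a gene at 0.55 ± 0.095 FPKM against 0.08 in each vector library. Event reads of 65 or more in every library, both forms joined, thus stood beside a very low gene value, and reads from the other strand cannot be told apart where strand use is not stated. C1QTNF6 and ESPN, an actin bundler, rose by 2.26 and 2.22 in event reads and, with too few or no SE reads, had no ratio. LLGL2, a cell polarity protein (chromosome 17, 73560589 to 73564556, 3968 bases), rose in event reads by 1.59, from 1095 to 1251 up to 2939 to 3104, and also against its gene by 0.41 (SE 0.089, adjusted p = 0.00219), though not with its most-read SE event as the level (0.29, adjusted p = 0.0843).

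The intron with the most reads was in STEAP2, a metalloreductase of prostate epithelium (chromosome 7, 89861799 to 89866204, 4406 bases). It had 16075, 15600 and 16953 event reads in the libraries labelled KDM4B and 19556, 19422 and 21946 in the vector libraries, or 877 ± 63.7 and 952 ± 7.69 per 100 SE reads. The groups overlapped, and the change of -0.12 (SE 0.060) did not pass (adjusted p = 0.209). A separate STEAP2 intron (chromosome 7, 89841360 to 89845745, 4386 bases, 2 exons inside) rose by 0.25 (SE 0.085, adjusted p = 0.0491). That call was lost with DESeq2 (adjusted p = 0.225) and without KDM4B replicate 1 or 2 or vector replicate 1 or 3 (adjusted p = 0.119 to 0.289).

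Next by reads came CMTM4, ECHDC2, ZC3H11A and ATPIF1. CMTM4 (chromosome 16, 66651262 to 66655964, 4703 bases), a membrane protein whose gene has no SE events, had 4404 to 4621 event reads against 6076 to 6551, a change of -0.26 (SE 0.055, adjusted p = 0.00151) in event reads. ECHDC2, an enoyl-CoA hydratase domain protein (chromosome 1, 53377463 to 53387224, 9762 bases, 2 exons inside), fell by 0.24 against its gene (SE 0.063, adjusted p = 0.0112), but passed neither with DESeq2 (adjusted p = 0.134) nor without KDM4B replicate 1 (adjusted p = 0.0634) or vector replicate 3 (adjusted p = 0.0998). ZC3H11A, a zinc finger protein of mRNA export (chromosome 1, 203764904 to 203772084, 7181 bases, 2 exons inside), measured 59.5 ± 0.49 event reads per 100 SE reads against 57.3 ± 1.04, a change of 0.05 (SE 0.057, adjusted p = 0.615).

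ATPIF1, the inhibitor of the mitochondrial ATP synthase (chromosome 1, 28562964 to 28564347, 1384 bases), was the one of these 5 best-read introns that rose. Its event reads were 4514, 4781 and 4569 against 3604, 3581 and 3541, with SE reads that overlapped at 3093 to 3289 against 3193 to 3631. Against the gene the change was 0.46 (SE 0.067, adjusted p = 4.78e-05). A second event with the same start ends at 28564271 and covers 1308 bases; it had 2934, 3209 and 3124 reads against 1835, 2010 and 1973 and rose by 0.76 (SE 0.081, adjusted p = 9e-07). The 2 events share most of their reads and are not independent.

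The longest intron, in CLEC16A, an autophagy gene (chromosome 16, 11260410 to 11272753, 12344 bases, 1 exon inside), had 820 to 865 event reads against 913 to 965 and a change of -0.15 (SE 0.11, adjusted p = 0.414). The third longest that was tested, in B3GNTL1, a glycosyltransferase-like gene (chromosome 17, 80904860 to 80914570, 9711 bases), had a change of 0.08 (SE 0.13, adjusted p = 0.759). At the length limit stood ARAF and C9orf69, both 505 bases, and just under it C16orf62 at 500 and HPS4 at 499. ARAF, a RAF kinase, had 64.1 ± 13.03 event reads per 100 SE reads against 49.8 ± 12.3, C16orf62 0.696 ± 0.035 against 1.08 ± 0.11 and HPS4 11.3 ± 0.90 against 7.59 ± 0.66. C9orf69 has no SE events and had 898 to 949 event reads against 1192 to 1238.

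KLK2, an androgen-induced protease of the prostate, had 3 overlapping long introns that end at the same base (chromosome 19, 51381659) and start at 51380015, 51380265 and 51380302. The longest of 1645 bases, with 2 exons inside, had 918, 815 and 863 event reads against 5271, 5617 and 5334, and 23.2 ± 1.03 event reads per 100 SE reads against 18.6 ± 0.62. It rose by 0.32 (SE 0.061, adjusted p = 0.00068) against a gene that stood at 20.8 ± 1.58 FPKM against 168 ± 3.77. The 1395-base and 1358-base introns, with no exon inside, had changes of 0.03 (adjusted p = 0.82) and 0.19 (adjusted p = 0.0555). Event reads of all 3 fell, by 2.42, 2.71 and 2.56 on the log2 scale. No long retained intron of KDM4B was in the table.

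Long introns of the RNA-processing genes listed here were few. The lists are not complete, and PRPF4B and CELF1, whose falls are given elsewhere in the text, are not on them. Of 6 tested introns of SR and hnRNP genes, 0 rose and 2 fell, both of them overlapping versions of 1 EWSR1 intron (2778 and 2775 bases); at an unadjusted p below 0.05 the edgeR counts were also 0 and 2, and with DESeq2 0 and 0. The EWSR1 intron (chromosome 22, 29684776 to 29687553) measured 14.9 ± 0.60 event reads per 100 SE reads against 16.9 ± 0.26, a change of -0.18 (SE 0.057, adjusted p = 0.0314) that was lost without KDM4B replicate 1 or 4 or vector replicate 1 or 3 (adjusted p = 0.0859 to 0.109). Of 3 core spliceosome introns 0 rose and 1 fell (unadjusted 0 and 2, DESeq2 0 and 1). This was SF1, the branch point binding protein (chromosome 11, 64537881 to 64543969, 6089 bases, 1 exon inside). It had 62.3, 63.4 and 64.7 event reads per 100 SE reads against 79.6, 83.8 and 89.9 and fell by 0.41 (SE 0.066, adjusted p = 0.000125), while the gene stood at 85.2 ± 3.22 FPKM against 84.0 ± 3.35. Among genes known for detained introns, those of CLK1, LUC7L and LUC7L3 were tested; 0 rose and 0 fell (unadjusted 0 and 1, DESeq2 0 and 0), and SRSF2 has no SE events. The median over these 3 was -0.16, against -0.02 over all long introns.

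Of 8 tested introns of androgen-induced genes 2 rose, in KLK2 and STEAP2, and 0 fell (unadjusted 4 and 1, DESeq2 1 and 0); their median was 0.18. Their event reads rose for 3 and fell for 5 of 9. Of 3 tested introns of amino acid and endoplasmic reticulum stress genes 1 rose, in GTPBP2, and 0 fell (unadjusted 2 and 0, DESeq2 1 and 0), while event reads fell for 5 of 5, in ATF3, ATF4, GTPBP2 and at 2 places in VEGFA. ATF3 and ATF4 are transcription factors of the stress response and VEGFA is a growth factor for blood vessels; they were picked for these values. ATF4 (chromosome 22, 39916757 to 39917358, 602 bases) had 1649, 1958 and 1933 event reads against 3575, 3608 and 2736, a change of -0.62 (SE 0.089, adjusted p = 3.38e-05), with the gene at 352 against 647 mean FPKM.

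Of 8 tested introns of histone lysine methylation enzymes, 0 rose and 1 fell (unadjusted 2 and 1, DESeq2 0 and 1), with a median of -0.03. The one that fell was in KMT2A, a histone H3 lysine 4 methyltransferase (chromosome 11, 118399507 to 118401368, 1862 bases), with 198, 220 and 233 event reads against 311, 340 and 331 and a change of -0.47 (SE 0.11, adjusted p = 0.00349). With its most-read SE event as the level it did not pass (adjusted p = 0.0769). The spliced transcript of this KMT2A intron was named as a new one, with an upstream exon of 6895 bases. Whether the intron lies within KMT2A could not be checked, since the build of the positions is not settled. One intron of RPL28 and 2 of DNA repair genes, NEIL1 and XRCC3, were tested and 0 passed (unadjusted 0, DESeq2 0), and the lists of nonsense-mediated decay factors and of metabolic enzymes had 0 members.

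Some genes held several separate long introns. There were 39 such genes with 84 tested introns, and in 19 all introns had the same sign. Each intron was taken by its most-read event where events overlap, which leaves out the called 4386-base event of STEAP2, since its better-read 4445-base version did not pass (adjusted p = 0.0579). At least 1 intron was called in 15 genes, at least 2 in 3 genes, namely SYTL1 upward and ANAPC2 and PRPF4B downward, and in no gene were introns called in opposite directions. Introns of a gene are set against the same SE reads, so their signs go together in part by construction. Event reads alone changed by -0.13 and 0.03 in ANAPC2 (edgeR, adjusted p = 0.641 and 0.843), and the ratio of its 1124-base intron overlapped between the groups. In PRPF4B they changed by -0.44 and -0.34 (adjusted p = 0.128 and 0.0167). In KMT2A the 1862-base intron fell, while the 990-base and 540-base introns had changes of -0.26 (adjusted p = 0.396) and -0.01 (adjusted p = 0.973). In ARIH2 a 2622-base intron fell by 0.33 (adjusted p = 0.000501) and a 730-base intron had a change of 0.18 (adjusted p = 0.209). The spliced transcripts of these KMT2A and ARIH2 introns were all named as new ones. Whether the introns lie within those genes could not be checked, since the build of the positions is not settled. The difference between introns of a gene was not tested. In the 60 genes that held both long and short tested introns, the mean change of the long ones was above that of the short ones in 26 and below in 34, with a median difference of -0.04.

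**Figure D4:**
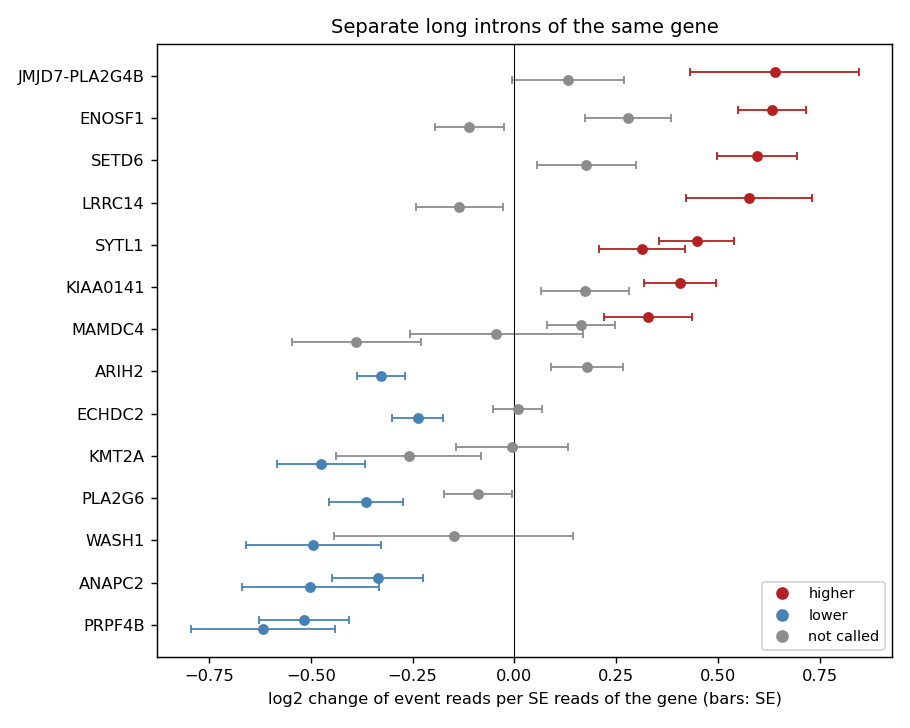
Log2 change of event reads per SE reads of the gene for each separate long intron (points, with SE) in 14 of the 15 genes that hold at least 2 of them and at least 1 called. PRPF4B, ANAPC2 and SYTL1 have both introns called on the same side, and ENOSF1 spreads from -0.11 to 0.63.

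Reads on the spliced junction could be counted apart for 1 long intron, in IP6K2, an inositol phosphate kinase (chromosome 3, 48731674 to 48732522, 849 bases, 3 exons inside). Its spliced junction was also recovered from the SE and mutually exclusive exon tables, with 12, 16 and 20 spliced reads in the libraries labelled KDM4B and 14, 17 and 19 in the vector libraries. The rest of the event reads, 97.3% ± 0.56 (SD, n = 3) against 97.9% ± 0.55, lay in the intron or its flanking exons, and the values overlapped between the groups. Both forms share the flanking exons, so this is not the share of the retained form. No test was made on 1 event. By the joined count the intron fell by 0.30 against its gene (adjusted p = 0.0372).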

How the data were processed

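LNCaP RNA-seq libraries, 3 labelled KDM4B and 3 vector, were grouped by their genotype labels. The authors deposited whole-number read counts per splicing event and library, not normalized, and FPKM per gene, per the file headers. The submitters' processing notes list the builds GRCh38 and hg38 and the tools HISAT, StringTie and Cufflinks, with neither versions nor roles. Splicing caller, annotation and strand use were not given in the sources used here. Positions are counted from 1, and 1 was added to the deposited upstream exon end to give the first base of an intron. On RefSeq GRCh38, 82 of 868 retained introns (9.45%) lie inside their gene, so the build of the positions is not settled. Event counts join both splice forms.

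Event reads and summed SE reads were tested in 1 model per event with library, form and form by group (edgeR 4.0.16, glmQLFit and glmQLFTest, two-sided, R 4.3.3), for events with at least 10 of each in every library, adjusted by Benjamini-Hochberg over all 750 retained introns tested. Event reads alone were fitted with SE library totals and TMM factors. Genes whose mean FPKM reached 1 were tested with limma 3.58.1 (trend) on log2(FPKM + 1). The threshold was 0.05. The planned test of both forms needed at least 10 events and had 1. The fits were tested on simulated data. Chi-square per degree of freedom over 819 events was 2.79 to 3.68 within and 36.3 to 44.1 between groups, so no library was a copy.

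Named introns: the 8 largest rises and falls past the threshold with at least 20 reads per library and groups apart, the 5 with most reads, the 3 longest tested, those nearest 500 bases, all of KDM4B and the kallikreins, and called introns of the gene lists, up to 4 a list; overlapping events count once. One of the falls is not reported here. The members and lists were chosen with earlier results of these data known. Alternatives were DESeq2 1.42.0, other read filters, levels and scalings, a robust fit, leaving out each library and a replicate block. Alternative 5' splice sites were not analysed here.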

Additional observations from a re-analysis of the deposited data

How the results depend on the processing

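Of the 76 long introns called against their gene, none was called the other way in any alternative. DESeq2 called 44 (26 higher, 18 lower), and all 44 were among the 76. The most-read SE event as the level called 36 (22 higher, 14 lower), and FPKM as the level 107 (58 higher, 49 lower), of which 40 higher and 30 lower were among the 76. SE events outside the intron and its flanking exons, a level not planned at the start, gave 42 higher and 30 lower of 353 tested. Of these, 35 higher and 28 lower were among the 76. Among the 315 introns with no exon inside, an alternative added after the data were seen, 27 were higher and 28 lower. Leaving out 1 library gave 52 to 78 calls (30 to 41 higher, 22 to 40 lower), with 22 lower without vector replicate 1 and without vector replicate 3; event reads alone gave 166 to 187 (59 to 63 higher, 103 to 128 lower) and host genes 226 to 241 (31 to 35 higher, 193 to 209 lower). For the share of IP6K2 event reads off the spliced junction the difference of -0.61 percentage points ran from -0.93 to -0.30. DESeq2 and the block were not run on this 1 event.

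The groups share replicate numbers 1 and 2, and the fit with a replicate block called 1 intron (0 higher, 1 lower), LTN1; at an unadjusted p below 0.05 that edgeR fit had 50 higher and 49 lower. The block compares the groups only within replicate numbers 1 and 2, which limits what that fit can detect. Deviations of same-numbered libraries were correlated at -0.0687 and 0.018 over 750 events. For libraries with different numbers the correlations ran from -0.084 to 0.12, so same-numbered libraries were no more alike on this measure. Whether same-numbered libraries share a day or a culture was not tested. Median-of-ratios scaling gave 81 higher and 126 lower host genes. It turned the FPKM change of RABL2A (0.088), PDCD2 (0.14), TNRC6C (0.16), TUBGCP6 (0.061), PRPF4B (0.14), ATPIF1 (0.16), CLEC16A (0.17) and ARAF (0.046) upward. Low depth limits genes with few SE reads: 40 tested introns had under 100 in a library, and 5 of these were called.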

Other observations

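A few long introns moved in ways that the counts above hide; they were picked for their values. In CELF1, an RNA-binding splicing regulator (chromosome 11, 47490444 to 47493742, 3299 bases), event reads were 3913, 4200 and 3812 in the libraries labelled KDM4B and 3964, 3954 and 3964 in the vector libraries, a rise of 0.22 once scaled to library totals (adjusted p = 0.00285). Against its gene the same intron fell by 0.26 (adjusted p = 0.0141), with 206 to 222 event reads per 100 SE reads against 245 to 262. It was the one intron whose event reads and ratio were called in opposite directions among those that fell, and the gene stood at 33.2 mean FPKM in both groups.

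In SYTL1, whose gene measured 7.83 mean FPKM against 27.3, reads of both called introns fell, by 0.94 and 0.80 on the log2 scale, yet less than the SE reads, so that both rose against the gene, by 0.31 (adjusted p = 0.045) and 0.45 (adjusted p = 0.00144).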
